A study of Mus musculus with 5 samples.

Results

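Primed epiblast regulators and markers were followed through a set of 5 mouse cell populations by 7 genes, Otx2, Pou3f1, Zic2, Sall2, Sox4, Car14 and Foxd3. They were chosen by name, each is measured by 1 probe set that carries its symbol alone, and they are 7 of 19938 genes with a symbol on the array. Expression was read with Affymetrix GeneChip Mouse Gene 1.0 ST arrays, where a probe set combines the short probes of a gene. Parental ESCs were a B6CBAF1 embryonic stem cell line (C57BL/6 mother, CBA/ca father), cultured with leukemia inhibitory factor (LIF) with inactivated fetal fibroblasts of ICR mice as feeders. The ESC-like cells were grown on the same feeders from teratomas that the parental line had formed under the skin of a recipient mouse. In the homologous group ESCs alone were injected into B6CBAF1 mice, and in the heterologous group ESCs alone into B6D2F1 mice (C57BL/6 mother, DBA2 father). In the co-injection group ESCs were mixed with B6D2F1 fetal fibroblasts and placed in B6D2F1 mice. Parental, homologous and heterologous cells had 1 array each and co-injection had 2, called batch 1 and batch 2. In the study only 1 teratoma formed after heterologous injection of ESCs alone. Traits of that line and of the group therefore cannot be told apart. The study's methods give a higher LIF concentration for cells from teratomas than for parental ESCs, whereas the sample labels give a single one for both; its part in the differences below was not tested.

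ESCs of the naive state correspond to the epiblast before implantation, and the primed state to the epiblast after implantation, when cells prepare to form germ layers. Otx2 encodes a homeodomain factor that drives the passage from the naive to the primed state, where it acts at enhancers together with Oct4, and that later patterns the forebrain. Pou3f1 (Oct6), a POU factor, and Zic2, a zinc finger factor, work in the same transition and again in early neural tissue. Foxd3 is a forkhead factor that mouse pluripotent cells need and that acts on enhancers as cells leave the naive state. Sall2, a zinc finger gene of the spalt family, and Sox4, of the SoxC group of HMG-box factors, are widely active in embryonic and neural progenitors, and Car14 encodes a carbonic anhydrase of the cell surface.

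Each value below is a log2 expression value, so that a difference of 1 is 2-fold, and more than 2-fold is the rule by which genes are counted. Array medians lay between 7.48 and 7.54, and the 2 co-injection arrays differed by a median of 0.067 and a 95th percentile of 0.249 over the 19938 genes. SDs are those of this pair (n = 2). The study counts its members as separate cell populations, but neither the study nor the labels say whether they came from separate teratomas. The SD may therefore not cover the spread between teratomas. The other 3 groups have 1 array each, so only co-injection has replicates, and the differences are given here by size without a p-value; a limma fit with its p-values is among the alternatives. The mean of 10 core pluripotency genes, Oct4 (Pou5f1), Sox2 and Nanog among them, was far above the array medians. It was 12.23 in parental ESCs, 12.11 in homologous, 12.00 in heterologous and 12.15 in both co-injection arrays. Against parental ESCs 0 of the 10 were past 2-fold in any group. Of all genes, 1.45%, 3.98% and 0.647% were higher in homologous, heterologous and co-injection cells, and 1.60%, 1.95% and 1.44% lower. A count of 0 in 10 is thus near the share of all genes. The highest difference of the 10 was that of Lin28a, at 0.28 in homologous, 0.41 in heterologous and 0.37 in co-injection cells. The lowest was that of Nanog, at −0.60, −0.72 and −0.66. All differences from parental ESCs use the same parental array. In a culture of mixed cells, fewer cells of a type and less RNA per cell cannot be told apart.

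RefSeq promoter windows (GRCm38.p6, 250 bases before a start site) were found for 5 of the 7 genes, 9 windows in all, since Otx2 has 4 starts and Sall2 has 2. They were searched on both strands for 4 short motifs of factors of these families: TAATCC, read by OTX factors; the POU octamer ATGCAAAT; the forkhead motif TGTTTAC; and the SOX core ACAAAG. The windows of 3 genes are shown, of a gene that was lower in the heterologous cells alone, of a gene whose highest value was in the homologous cells, and of the gene that was lower in all ESC-like cells. The Otx2 window is that of the start farthest upstream (chr14:48667645-48667894, minus strand), the Car14 window lies at chr3:95904686-95904935 (minus strand) and the Foxd3 window at chr4:99656049-99656298 (plus strand). Capitals mark a motif match.
Otx2: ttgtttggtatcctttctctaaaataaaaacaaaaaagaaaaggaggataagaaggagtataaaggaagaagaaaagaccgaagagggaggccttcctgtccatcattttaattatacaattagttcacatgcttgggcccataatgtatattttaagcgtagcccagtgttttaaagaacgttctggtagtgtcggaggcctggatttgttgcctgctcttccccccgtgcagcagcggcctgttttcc
Car14: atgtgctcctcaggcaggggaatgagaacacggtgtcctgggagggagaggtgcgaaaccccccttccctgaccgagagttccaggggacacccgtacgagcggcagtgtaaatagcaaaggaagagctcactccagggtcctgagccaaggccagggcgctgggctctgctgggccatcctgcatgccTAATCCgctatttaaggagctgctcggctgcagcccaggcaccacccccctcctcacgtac
Foxd3: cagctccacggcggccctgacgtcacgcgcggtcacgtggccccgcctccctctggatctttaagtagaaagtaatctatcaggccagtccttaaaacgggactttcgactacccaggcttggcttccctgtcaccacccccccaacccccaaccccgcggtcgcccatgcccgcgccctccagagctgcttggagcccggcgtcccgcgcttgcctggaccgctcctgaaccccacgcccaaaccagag
The Car14 window held TAATCC, beginning at base 190 of the window, and 1 of the 4 Otx2 windows, not the one shown, held it on the other strand at base 40. TAATCC occurs in 6.25% of 32851 windows of the same length. None of the 9 windows held the POU, forkhead or SOX letters, which occur in 1.60%, 3.17% and 16.5% of all windows; this says only that the letters are not there. The Foxd3 window was rich in CpG, with 21 against a median of 6 over all windows and 65.6% G and C, whereas the upstream window of Sall2 held 0 CpG and 28% G and C.

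Otx2 separated the heterologous array from all others. Its value was 9.25 in parental ESCs, 9.73 in the homologous array, 7.75 in the heterologous array, and 9.60 and 9.30 in co-injection batches 1 and 2. Only the heterologous array stood apart. The gap of 1.51 between it and the next array was larger than the 0.300 between the co-injection arrays. The steps from parental ESCs to batch 2 (0.043) and from batch 1 to the homologous array (0.137) were smaller than that. The heterologous value was 2.84-fold below parental ESCs (log2 difference −1.51) and 3.96-fold below the homologous array (−1.98), and only 5 genes of 19938 lay lower in this second comparison. The co-injection mean exceeded the heterologous array by 1.70 ± 0.21 (SD, n = 2), which is 3.25-fold, and again 5 genes had a higher difference; both comparisons contain the heterologous array, so they are not independent. Against parental ESCs the co-injection mean differed by 0.19 ± 0.21, less than the SD of the pair, and the homologous array by 0.48.

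**Figure D1:**
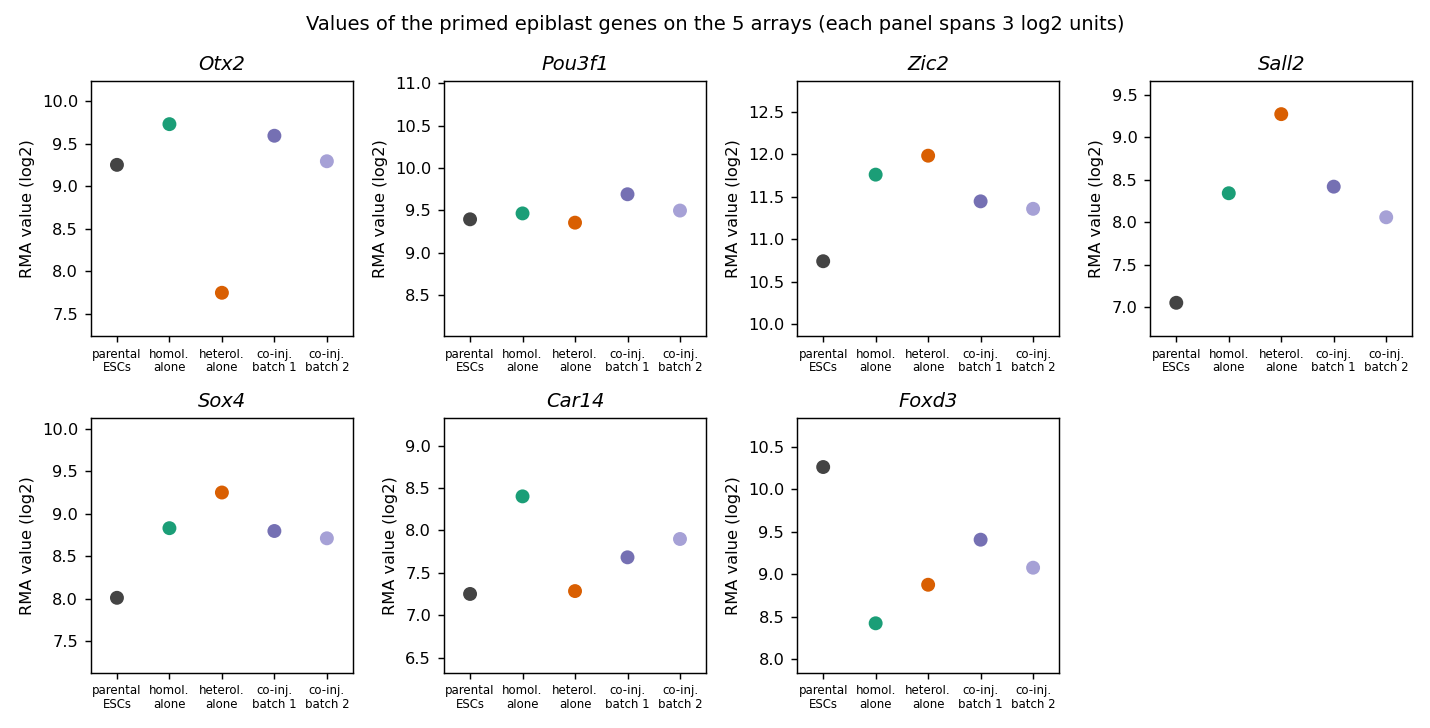
Log2 expression values (vertical axis, RMA) of the 7 genes in parental ESCs, homologous, heterologous and the 2 co-injection arrays (horizontal axis), 1 point per array; each panel spans 3 log2 units around the gene's own range. Otx2 is low in the heterologous array only (7.75), Foxd3 is highest in parental ESCs (10.26), and Sall2, Zic2 and Sox4 are lowest there.

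Sall2 was higher than in parental ESCs in all 4 ESC-like arrays, and most of all in the heterologous one. Parental ESCs had 7.05, which is below the median of all probe sets on that array, the homologous array 8.34, the heterologous array 9.27 and the co-injection arrays 8.42 and 8.06. The differences from parental ESCs were 1.29, 2.22 and 1.19 ± 0.25 (SD, n = 2), or 2.44-, 4.66- and 2.28-fold. Each ESC-like array was thus more than 2-fold above the parental array, batch 2 just so with 1.01. The homologous and co-injection arrays could not be ordered, since they lay within 0.360 of each other, the difference of the co-injection pair. The heterologous array stood 0.85 above the next one, batch 1.

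Zic2 and Sox4, like Sall2, were lowest in parental ESCs and highest in the heterologous array, with smaller differences. For Zic2 the values were 10.74 in parental ESCs, 11.76 in the homologous array, 11.98 in the heterologous array, and 11.45 and 11.36 in co-injection. Every ESC-like array was above parental ESCs, and every step between groups was larger than the difference of 0.088 between the co-injection arrays. The smallest step, 0.223 from the homologous to the heterologous array, was below 0.249, the 95th percentile of the co-injection differences over all genes. The heterologous difference was 1.24 and the homologous one 1.02, just past 2-fold, while the co-injection mean, at 0.66 ± 0.06 (SD, n = 2), did not reach 2-fold. For Sox4, parental ESCs had 8.01, the homologous array 8.83, the heterologous array 9.25 and the co-injection arrays 8.80 and 8.71. The heterologous array was 2.36-fold above parental ESCs (1.24), whereas the homologous array (0.82) and the co-injection mean (0.74 ± 0.06; SD, n = 2) stayed below 2-fold. The homologous array and batch 1 differed by only 0.033 for Sox4, less than the 0.086 between the co-injection arrays. Over the 4 differences from parental ESCs, Zic2 and Sox4 were the most alike pair among the 7 genes, with a Euclidean distance of 0.231 on the log2 scale against 1.22 for the next pair, Pou3f1 and Car14.

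Foxd3 was the single gene of the 7 that was lower in every ESC-like array. Its value fell from 10.26 in parental ESCs to 8.42 in the homologous, 8.88 in the heterologous and 9.41 and 9.08 in the co-injection arrays. No ESC-like array reached the parental value, and the closest, batch 1, was 0.86 below it. The difference from parental ESCs was −1.84 in the homologous array, a 3.58-fold lower value, −1.39 in the heterologous array (2.61-fold lower) and −1.02 ± 0.23 (SD, n = 2) in the co-injection mean. The last passes 2-fold only in the mean and in batch 2 (−1.19), and batch 1 alone (−0.86) does not. Between the ESC-like groups, the co-injection mean lay 0.82 ± 0.23 above the homologous array, under 2-fold, although only 22 genes had a higher difference in that comparison. The heterologous array and batch 2 were 0.201 apart, less than the co-injection arrays were from each other (0.330).

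**Figure D2:**
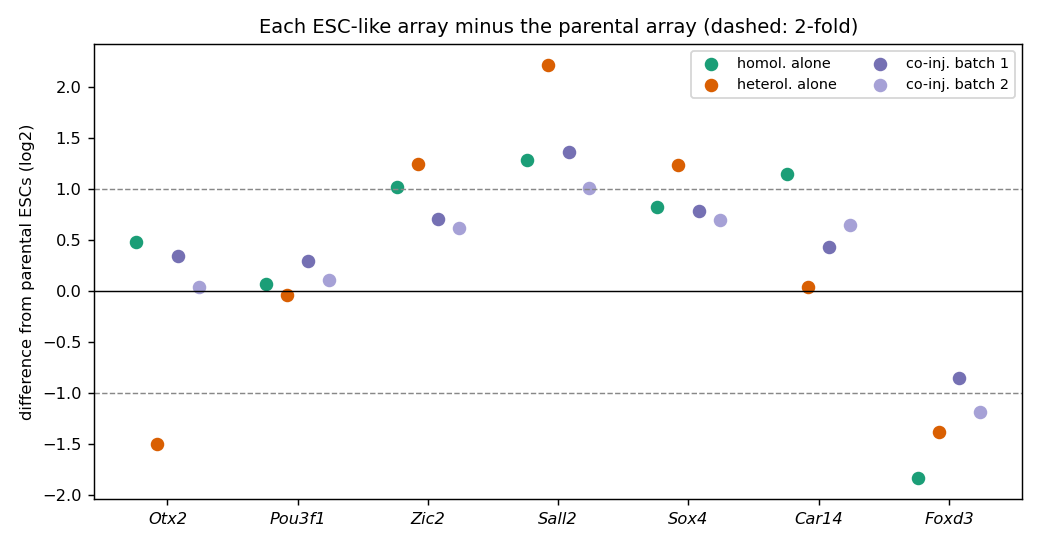
Difference from parental ESCs (vertical axis, log2) of each ESC-like array for the 7 genes (horizontal axis), 1 point per array, with dashed lines at 2-fold. Sall2 lies above 2-fold in all 4 arrays, Foxd3 below zero in all 4, and Otx2 is more than 2-fold lower in the heterologous array alone (−1.51).

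For Car14 and Pou3f1 the heterologous and parental arrays lay 0.034 and 0.040 apart, less than the co-injection arrays of each gene (0.216 and 0.192). Car14 had 7.25 in parental ESCs, also below the median of that array, 8.40 in the homologous array, 7.29 in the heterologous array, and 7.68 and 7.90 in co-injection. The homologous array was highest, 2.22-fold above parental ESCs (1.15) and 2.17-fold above the heterologous array, and the co-injection arrays lay between (0.54 ± 0.15 above parental ESCs; SD, n = 2). Like Otx2, Car14 was thus more than 2-fold lower in the heterologous than in the homologous array; unlike Otx2, it was not lower there than in parental ESCs. Pou3f1 had 9.40, 9.47 and 9.36 in the parental, homologous and heterologous arrays and 9.69 and 9.50 in the co-injection arrays. Its whole range was 0.334, against 0.192 within the co-injection pair. Outside that pair the largest step in its order was 0.069, from parental ESCs to the homologous array. The gene was the least variable of the 7, whose other ranges ran from 1.15 (Car14) to 2.22 (Sall2).

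Counted against all genes, the 7 genes were often past 2-fold, in both directions. In the homologous array 3 of 7 (Zic2, Sall2 and Car14) were higher than in parental ESCs, against 1.45% of 19938 genes, and 1 (Foxd3) was lower, against 1.60%. In the heterologous array 3 were higher (Zic2, Sall2 and Sox4), against 3.98%, and 2 were lower (Otx2 and Foxd3), against 1.95%. In the co-injection mean 1 was higher (Sall2), against 0.647%, and 1 lower (Foxd3), against 1.44%. The medians of the 7 differences were 0.82, 0.03 and 0.54 for the homologous, heterologous and co-injection cells, where the medians of all genes were −0.01, −0.04 and 0.04. The genes were put together with earlier results of these arrays known, so these shares describe them and are no test.

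Between the ESC-like groups fewer genes passed. The heterologous array had 2 of the 7 more than 2-fold lower than the homologous array, Otx2 and Car14, against 0.647% of genes, and 0 higher, against 2.41%; Sall2 came closest, with 0.93. The co-injection mean had 1 gene higher than the heterologous array, Otx2, against 0.361%, and 1 lower, Sall2, with −1.03 ± 0.25 (SD, n = 2), against 2.99%. None of the 7 passed 2-fold between the co-injection mean and the homologous array, where 0.0752% of genes were higher and 0.351% lower.

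**Figure D3:**
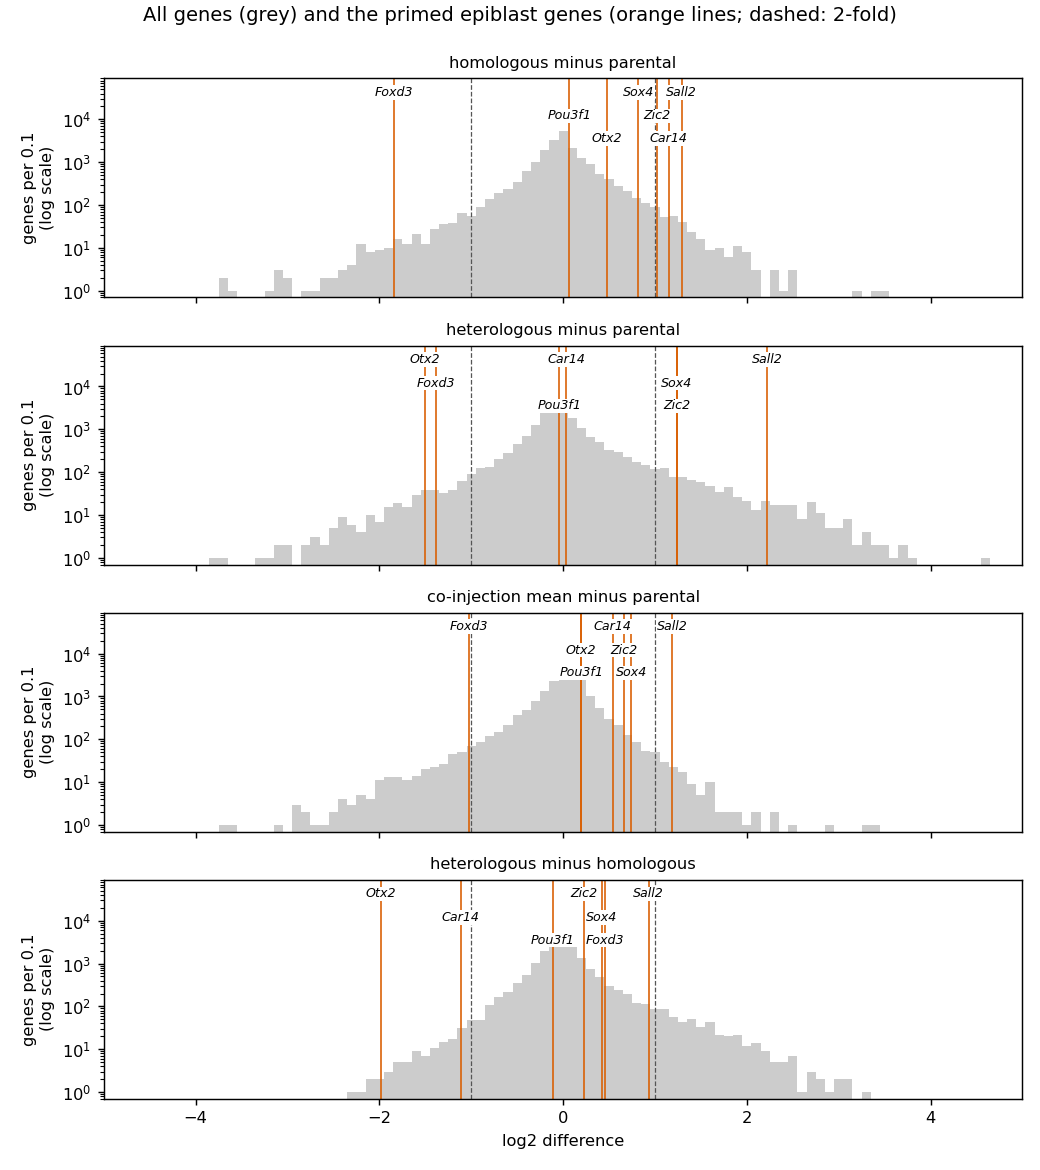
Number of genes (vertical axis, log scale) by log2 difference (horizontal axis, bins of 0.1) for 4 comparisons, all genes in grey, with orange lines at the 7 genes and dashed lines at 2-fold. In the lowest panel, heterologous minus homologous, Otx2 stands at −1.98, near the lower end of all genes.

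Other genes of the primed epiblast moved in part. Of 18 further genes 17 could be measured, with median differences of 0.02 for homologous, −0.01 for heterologous and 0.14 for co-injection cells, close to that of all genes. Dnmt3a, a de novo DNA methyltransferase, was more than 2-fold higher in each group, by 1.10, 1.43 and 1.32 ± 0.13 (SD, n = 2). Cldn6, a tight junction claudin of embryonic epithelia, was higher in the homologous array (1.22) and in co-injection (1.23 ± 0.07) but lay at −0.41 in the heterologous array. Fgf5, the growth factor most used as a mark of the primed epiblast, stayed within 0.28 of parental ESCs in each group. In the heterologous array Cdh2 (N-cadherin) was higher by 2.30 and Grhl2, a grainyhead factor of epithelia, lower by −1.77; the 2 genes had 0.87 and −0.75 in the homologous array and 0.68 and −0.62 in the co-injection mean. The remaining genes were within 2-fold in every group, with Tcf15 (−0.87) the lowest in the homologous array and Lefty2, a Nodal antagonist, the lowest in co-injection (−0.74).

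Between heterologous and homologous cells 3 of these 17 genes passed 2-fold, Cdh2 higher and Cldn6 and Grhl2 lower. Of all genes, 2.41% were higher and 0.647% lower. Cldn6 and Grhl2 thus shared the direction of Otx2 and Car14 in this comparison.

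Among relatives of the 7 genes, members of the same family differed from each other. Of 21 relatives 20 could be measured, and in each group 2 of them passed 2-fold upwards. Of all genes, 1.45% did so in homologous, 3.98% in heterologous and 0.647% in co-injection cells. Sox11, the SoxC relative of Sox4, was higher by 1.16 in homologous, 1.39 in heterologous and 1.09 ± 0.02 (SD, n = 2) in co-injection cells, whereas Sox12, of the same group, had 0.25, −0.11 and 0.04. Zic5, the protein-coding neighbour of Zic2 on chromosome 14, was at 0.76, 0.67 and 0.44, and Zic1 passed 2-fold only in the heterologous array (1.27). Sall3 differed in the direction opposite to Sall2, with −1.51 in the homologous array, −0.68 in the heterologous array and −1.06 ± 0.03 in co-injection, and Sall4, a core pluripotency gene, stayed between −0.13 and −0.02. Otx1, Crx and the other measured Foxd genes stayed within 0.24 of parental ESCs. Car12, another carbonic anhydrase of the cell surface, was higher by 1.56 in the homologous cells and 1.29 ± 0.14 in co-injection and had 0.99 in the heterologous array.

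**Figure D4:**
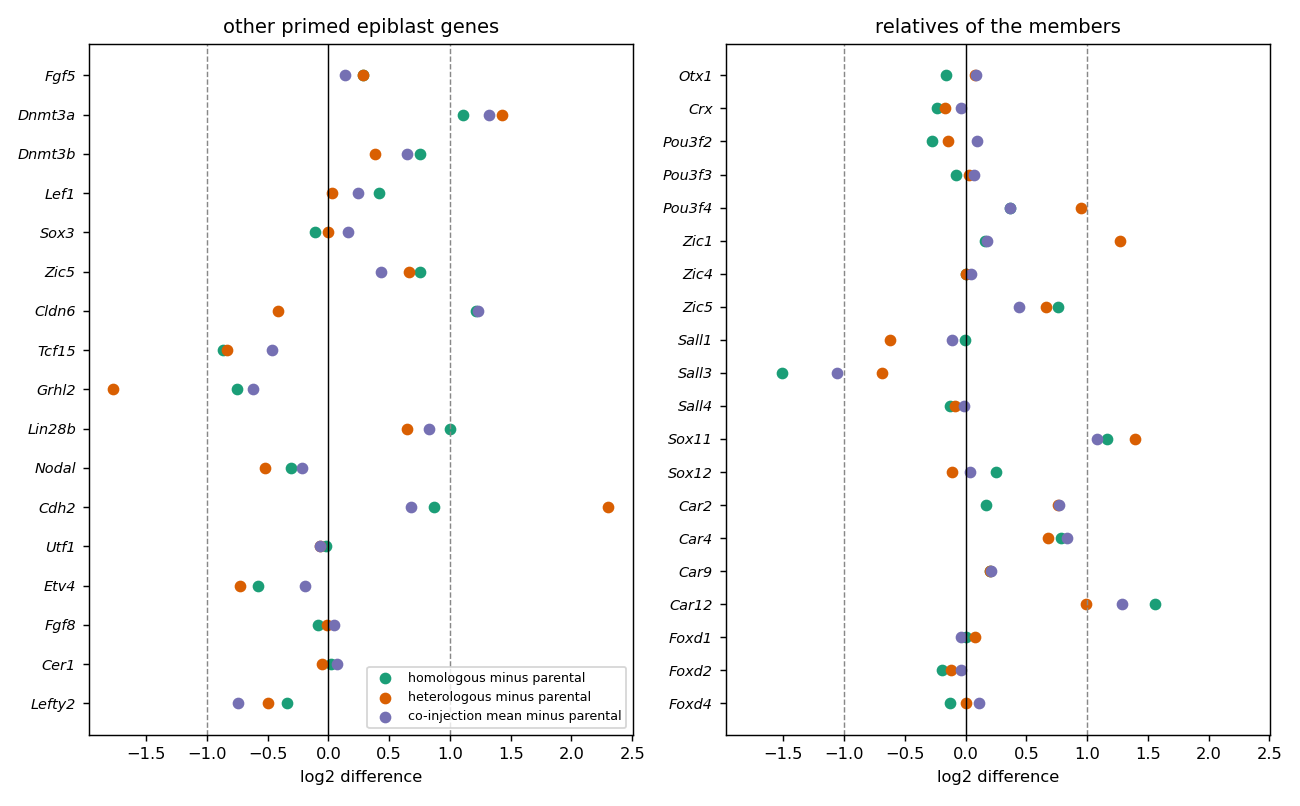
Log2 difference from parental ESCs (horizontal axis) in the homologous array, the heterologous array and the co-injection mean, 1 point each, for 17 other primed epiblast genes and 20 relatives of the 7 genes (vertical axes), with dashed lines at 2-fold. Cdh2 (2.30) and Grhl2 (−1.77) stand apart in the heterologous array; Dnmt3a and Sox11 lie above 2-fold in each group.

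Some genes of the naive state were lower beside these changes, most of them in the heterologous array. Of 14 naive pluripotency genes, 5 were more than 2-fold lower in the homologous, 11 in the heterologous and 3 in the co-injection cells. The shares of all genes that were so were 1.60%, 1.95% and 1.44%. The lowest was Tbx3 in the homologous array (−3.04), and Prdm14 in the others (−2.53 and −1.81 ± 0.08; SD, n = 2), while Dppa3 was more than 2-fold higher in the homologous array (1.94) and in co-injection (1.76 ± 0.10) and, at −0.21, the highest of the list in the heterologous array. Averaged over the 14 genes, parental ESCs had 11.09, the homologous array 10.20, the heterologous array 9.73 and the co-injection arrays 10.40 and 10.50. Of 9 primitive streak genes only Wnt8a (2.30) and Hoxb1 (1.90) passed 2-fold, both in the heterologous array, where 3.98% of all genes were higher. Wnt3 (0.19) and Wnt8a (0.71) were the highest of that list in the homologous and co-injection cells, and Eomes was the lowest in each group, at −0.54, −0.57 and −0.57.

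Markers of other cells moved with some of these results. The heterologous array exceeded parental ESCs more than 2-fold for 11 of 13 fibroblast genes, led by Postn (3.30). The homologous array did so for 1 (Pdgfrb, 1.31), while co-injection did so for 0 and was lower for 2. Of all genes, 3.98%, 1.45% and 0.647% were higher in these groups, and 1.44% were lower in co-injection. The lowest of these genes was Dcn in the homologous array (−0.08), Lum in the heterologous array (0.49) and Lox in co-injection (−2.04), where Lum was the highest (0.24). The mean value of the fibroblast list was 7.42 in parental ESCs, 7.89 in the homologous and 9.48 in the heterologous array, but 7.03 and 7.05 in the co-injection arrays, below parental ESCs. The co-injection mean differed from parental ESCs by 1.19 for Sall2, 0.74 for Sox4, 0.66 for Zic2, 0.19 for Otx2 and −1.02 for Foxd3. The part of fibroblast RNA, from the feeder layer or a host, in the heterologous values of Sall2, Sox4, Zic2, Otx2 and Foxd3 was not tested. Of 11 neural genes, 2 passed 2-fold upwards in homologous, 4 in heterologous and 1 in co-injection cells, against 1.45%, 3.98% and 0.647% of all genes. Fabp7, of neural progenitors, was at 2.33 and 4.65 in the homologous and heterologous arrays and at 0.999 ± 0.09 (SD, n = 2) in co-injection. Nes (nestin) was the highest in co-injection by a small margin, at 1.004 ± 0.15 (SD, n = 2). It was at 1.11 in batch 1 and 0.90 in batch 2, so it passed 2-fold only in the mean and in batch 1. The lowest neural gene was Pax3 in homologous (−0.19), Tubb3 in heterologous (−0.44) and Map2 in co-injection cells (−0.28), all within 2-fold. Their part in the values of Sall2, Sox4 and Zic2, which neural progenitors also express, was not tested either. Of 8 genes of extraembryonic endoderm, Dab2 was the highest in each group (1.75, 3.09 and 1.48 ± 0.04) and Sox7 the lowest (−2.23, −1.85 and −1.77).

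**Figure D5:**
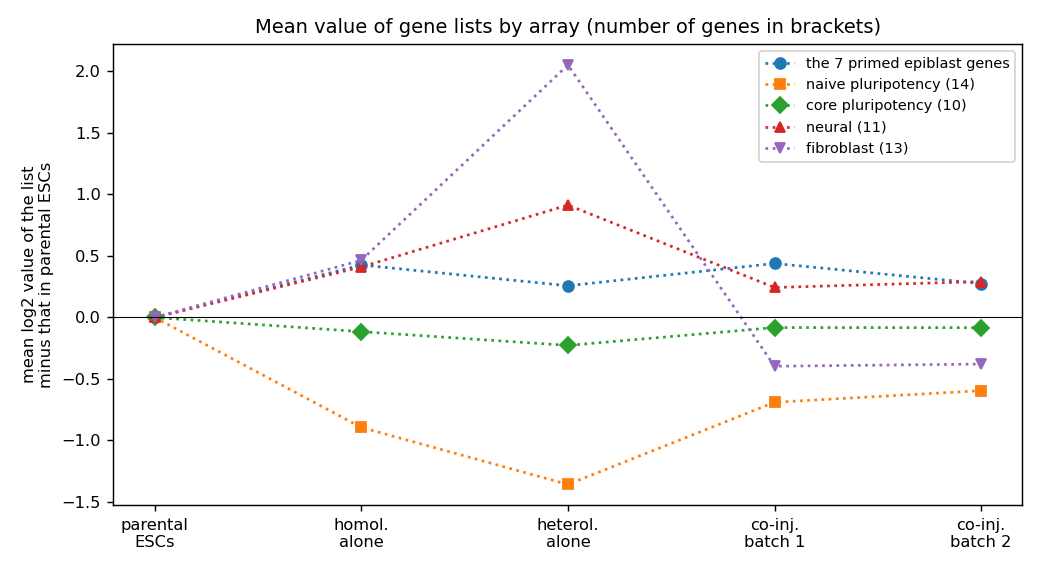
Mean log2 value of a gene list on each array minus its mean in parental ESCs (vertical axis) for the 7 primed epiblast genes and 4 other lists, over the 5 arrays (horizontal axis); dotted lines only join the points of a list. The fibroblast list is highest in the heterologous array and below parental ESCs in both co-injection arrays, and the naive list is lowest in the heterologous array.

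Genes of 1 chromosome differed in size or direction. Otx2, Zic2 and Sall2 all lie on chromosome 14, where the median of 399 expressed genes (mean value above 7.49, the median of all values) in the heterologous array was −0.0061 relative to parental ESCs, and in that array Otx2 was lower by −1.51 while Zic2 and Sall2 were higher by 1.24 and 2.22. Pou3f1 and Foxd3 share chromosome 4, and in the same array had −0.04 and −1.39, the first less than the difference of its co-injection pair and the second past 2-fold. The medians of the 4 chromosomes that carry the 7 genes stayed between −0.042 and 0.0082 in the 3 comparisons with parental ESCs. The study reports more aneuploidy in the ESC-like cells of every group than in parental ESCs. Its part in the differences of these genes was not tested.

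For each of the 7 genes the 3 genes with the most similar differences from parental ESCs were looked up among 11593 expressed genes, by Euclidean distance over the 4 ESC-like arrays. Rab25, a small GTPase of epithelial cells, was nearest to Otx2 (distance 0.333), with −1.51 in the heterologous and 0.79 in the homologous array, followed by Gmfg and Lad1. Foxd3 had Robo4 (0.261), Gata3 and Id1, a target of BMP signalling, beside it; Id1 was at −1.68 in homologous cells, −1.39 in heterologous cells, and −0.68 and −0.88 in co-injection. Nearest to Sall2 were St6gal2 (0.305), Irs1 and Nes. Zic2 was followed by Nnt (0.0608), Lefty1 and Clip3, Sox4 by Aig1 (0.105), Gja1 and Bag3, Car14 by Slc38a3 (0.0510), Akap7 and Gpr137b, and Pou3f1 by Nanos3 (0.0511), Armc6 and Troap. All of these profiles share the parental array, and genes that change little have many close neighbours by this measure.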

How the data were processed

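The authors hybridized RNA of 5 cell populations to Affymetrix GeneChip Mouse Gene 1.0 ST arrays, took probe intensities from GCOS, normalized them by RMA (quantile method) and deposited log2 expression values of 35556 probe sets per array; for versions and genome build the sources used here give nothing. These log2 values (2.77 to 14.0) were used with no further normalization. A gene was named from the platform annotation where a probe set has exactly 1 symbol (21789 probe sets) and was represented by the probe set with the highest mean. Chromosomes come from the GRCm38.p6 annotation; expressed means a mean value above 7.49, the median of all values.

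Differences are log2 values of 1 array, or of the co-injection mean, minus those of another, and a gene was counted past 2-fold, the rule of the study. The main values carry no test, because 3 groups have 1 array; limma was run as an alternative. The number of arrays limits the precision. The genes and lists were chosen with earlier results of these data known. Named are the 7 genes, the highest and lowest gene of each other list against parental ESCs, all genes past 2-fold in the lists of primed genes and relatives, and the 3 nearest profiles of each of the 7; Oct4, Sox2, Fgf5, Sox12, Zic5, Sall4, Otx1, Crx, Hoxb1 and the Foxd genes were named besides, after their values were seen. The promoter motifs and the 3 windows shown were picked after the values were seen as well.

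Alternatives were thresholds of 1.5- and 3-fold, the mean of a gene's probe sets, equal array medians, cyclic loess, subtraction of the chromosome's median, leaving out dim probe sets or either co-injection array, and limma 3.58.1 (Benjamini-Hochberg adjustment over 35556 probe sets, 1 residual and 0.818 prior degrees of freedom). Both the 2-fold count and limma were checked with simulated data for the heterologous against the parental array with 35556 probe sets: of 100 changed by 1.5 on the log2 scale the rule found 96% and limma 92%, and of 100 changed by 3 both found 100%. The simulated noise is that of the co-injection pair, pooled over probe sets of similar mean value. In the real data the spread differs between single probe sets, so the shares that limma found need not hold for these arrays. Scanner files were not used here, so background correction was not varied. R 4.3.3, Python 3.11.15, numpy 2.4.6, pandas 2.3.3 and matplotlib 3.10.9 were used.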

Additional observations from a re-analysis of the deposited data

Results flagged for a closer look

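Of the genes named by the rule given with the processing, those are listed here for which one group lay more than 2-fold from parental ESCs and every array of another group lay on the other side of parental ESCs; these differences were not tested. Otx2 was at −1.51 in the heterologous array, where the homologous array had 0.48 and the co-injection mean 0.19. Cldn6 was at 1.22 in the homologous array and 1.23 in co-injection against −0.41 in the heterologous array. Dppa3 was at 1.94 and 1.76 in the same groups against −0.21. Among fibroblast genes, Lox was at 2.76 in the heterologous array, −2.04 in co-injection and 0.46 in the homologous array. Postn was at 3.30 in the heterologous array and −0.86 in co-injection, and Pdgfrb at 3.10 and −0.43, with 1.31 in the homologous array. Dcn was at 2.67 in the heterologous array, where homologous cells had −0.08 and co-injection −0.82.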

How the results depend on the processing

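Array scaling, cyclic loess, the mean of a gene's probe sets, subtraction of the chromosome's median and the filter on dim probe sets left each of the 42 differences of the 7 genes on its side of 2-fold and moved none by more than 0.096; each of the 7 genes has 1 probe set and a mean above the filter, so the probe set rule and the filter had nothing to change. The counts of genes past 2-fold depended on the threshold. In the homologous array the count went from 4 to 1 at 3-fold, and in the heterologous array from 5 to 1. In the co-injection mean against parental ESCs it went from 2 to 4 at 1.5-fold and to 0 at 3-fold. Between heterologous and homologous cells and between co-injection and heterologous cells it went from 2 to 1 at 3-fold, and between co-injection and homologous cells from 0 to 2 at 1.5-fold. Leaving out either co-injection array gave counts of 1 to 2 against parental ESCs and of 1 to 2 against the heterologous array; without batch 2, Foxd3 (−0.86) and Sall2 (−0.85 against the heterologous array) no longer passed. Against the homologous array the count stayed at 0. The share of all genes was taken only at 2-fold and with both co-injection arrays. That share also depends on the threshold, so the counts at other settings describe the 7 genes alone. With limma, 0 of the 7 genes had an adjusted p under 0.05 in each of the 6 comparisons, with a lowest adjusted p of 0.110; unadjusted, 5, 5, 4, 3, 3 and 1 of the 7 had a p under 0.05, where 0 of 35556 probe sets passed after adjustment and 5339 to 9525 before it. The fit has 1 residual degree of freedom; an adjusted p over the threshold does not show that values did not differ. No paired analysis was possible because the labels share no replicate number between groups. Signal over background could not be measured from the processed values.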
